A study of Mus musculus with 45 samples.

Results

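The genes described here are 34 mouse genes that the transcription factor ATF4 is known to switch on when cells run short of amino acids or come under other stress, and they were taken by symbol. All 34 were found among the 55335 genes of each of 2 tables of FPKM, a level that corrects fragment numbers for the length of the transcript and the depth of the library. The study deposited RNA sequencing of 2 mouse tumour lines, CT26, a colon carcinoma line, and Hepa1-6, a liver line. In one experiment, wild-type cells of each line spent 48 h with stk, an agent known here only by that short name, or with its control DMSO. In the other, cells carrying a short hairpin RNA were collected 24 h after seeding. CT26 carried 1 of 3 hairpins against Soat1 (sh1, sh2 or sh3) or a control hairpin against luciferase (shLucif), and Hepa1-6 carried a scrambled control hairpin (scramble) or shLucif. Each of these 10 groups has 3 libraries, and nothing in the labels says whether they came from separate cultures or whether a hairpin line was 1 clone, so p-values measure only the spread between these libraries. Soat1 encodes sterol O-acyltransferase 1, which attaches fatty acids to cholesterol for storage, and the study's title concerns its inhibition.

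ATF4 is the main effector of the integrated stress response. Kinases that sense amino acid shortage, unfolded protein in the endoplasmic reticulum, heme shortage or double-stranded RNA phosphorylate the initiation factor eIF2, which slows most translation while the ATF4 mRNA, through its upstream reading frames, is translated more. The ATF4 protein then pairs with C/EBP factors on short promoter elements of genes for amino acid synthesis and uptake, for charging tRNAs and for the feedback that restores translation. Because ATF4 is largely controlled by translation, its mRNA level is not a measure of its protein.

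The promoter elements are shown first, because part of the members share them. The members were chosen as known ATF4 targets, and ATF4 acts through such elements. The share of members with the element is therefore not independent of that choice. The C/EBP-ATF response element was searched as TGATGNAAN on both strands of the 250 bases before each RefSeq start (GRCm38.p6). Of the 34 members, 29 had a promoter entry, and 11 of these 29 (37.9%) held the element, against 3.89% of 27025 genes and 3.44% of 32851 promoters of the same length. A second motif, the ER stress response element of ATF6 and XBP1, searched in its usual form on both strands, was found in 0 of the 29 and in 0.13% of genes. Each of the 12 sites is given here, read along the strand that carries the element, with the element in capitals. Slc7a11 held a pair of sites on opposite strands.
Atf3: ggacttggTGATGCAAGtgcgagaa (chr1:191183428-191183452, plus strand, 103 bases before the start)
Nupr1: gccctgtcTGATGCAATctggccct (chr7:126625565-126625589, plus strand, 103 bases before the start)
Asns: cagccacaTGATGAAACttcccgca (chr6:7693216-7693240, minus strand, 15 bases before the start)
Pycr1: cctgtgtaTGATGCAATgcacaagg (chr11:120643835-120643859, minus strand, 95 bases before the start)
Pck2: taagatacTGATGTAACtttgaagg (chr14:55540154-55540178, minus strand, 96 bases before the start)
Slc7a11: catgtggcTGATGCAAAcctggaga (chr3:50443663-50443687, minus strand, 58 bases before the start)
Slc7a11: ctgcatgaTGATGCAAAttctccag (chr3:50443645-50443669, plus strand, 40 bases before the start)
Chac1: ggcaggagTGATGCAACggcaggga (chr2:119351040-119351064, minus strand, 186 bases before the start)
Aars: ggctcggcTGATGCAATgctcaaga (chr8:111033721-111033745, minus strand, 105 bases before the start)
Gars: ccggtgcaTGATGAAATagcgcagc (chr6:55037962-55037986, minus strand, 23 bases before the start)
Fgf21: tggacggaTGATGCAATgggggggt (chr7:45615614-45615638, plus strand, 132 bases before the start)
Vldlr: aggagcgcTGATGCAACtattgctg (chr19:27216811-27216835, minus strand, 193 bases before the start)

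The upstream windows of the 5 members that changed most with the hairpin sh3, among those with an entry, are shown next, along the strand of the gene, with any element in capitals. Fgf21 and Chac1 each held 1 site on the strand opposite to the gene. Ppp1r15a, Psat1 and Ddit3 had no match in this window, which says only that these letters are not there.
Fgf21: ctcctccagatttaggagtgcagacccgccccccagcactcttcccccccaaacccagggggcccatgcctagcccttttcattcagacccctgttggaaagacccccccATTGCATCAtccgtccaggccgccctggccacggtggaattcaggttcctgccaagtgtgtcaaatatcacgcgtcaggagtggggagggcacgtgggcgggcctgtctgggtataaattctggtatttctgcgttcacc (chr7:45615491-45615740, minus strand)
Chac1: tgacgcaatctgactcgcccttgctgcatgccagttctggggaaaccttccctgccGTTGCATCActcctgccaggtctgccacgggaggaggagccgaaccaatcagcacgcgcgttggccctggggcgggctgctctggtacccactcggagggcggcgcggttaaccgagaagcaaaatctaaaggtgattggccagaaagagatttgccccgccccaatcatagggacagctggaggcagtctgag (chr2:119350992-119351241, plus strand)
Ppp1r15a: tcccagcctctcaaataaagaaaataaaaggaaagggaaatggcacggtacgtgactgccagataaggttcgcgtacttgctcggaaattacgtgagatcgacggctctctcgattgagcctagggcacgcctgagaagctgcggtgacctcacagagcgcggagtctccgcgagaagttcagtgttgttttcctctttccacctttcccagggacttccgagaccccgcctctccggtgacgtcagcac (chr7:45526269-45526518, minus strand)
Psat1: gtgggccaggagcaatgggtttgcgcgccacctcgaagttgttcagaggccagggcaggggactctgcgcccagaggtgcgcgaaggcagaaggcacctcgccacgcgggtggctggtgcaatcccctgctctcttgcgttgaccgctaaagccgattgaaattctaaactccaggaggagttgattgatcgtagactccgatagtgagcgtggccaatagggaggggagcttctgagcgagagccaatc (chr19:15925060-15925309, minus strand)
Ddit3: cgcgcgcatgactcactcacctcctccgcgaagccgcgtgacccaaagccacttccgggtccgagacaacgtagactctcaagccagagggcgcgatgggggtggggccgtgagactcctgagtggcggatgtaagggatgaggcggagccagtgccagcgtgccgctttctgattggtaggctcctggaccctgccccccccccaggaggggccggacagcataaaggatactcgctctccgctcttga (chr10:127290543-127290792, plus strand)

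Several facts about the libraries bear on the values. Each library's FPKM summed to between 314827 and 335067 in the drug experiment and between 320249 and 335813 in the knockdown experiment, and read totals are unknown, so no counting error could be given. Soat1 was at 2.52 to 2.71 FPKM with sh3, 3.23 to 3.29 with sh1 and 3.41 to 3.55 with sh2 in CT26, against 19.7 to 20.2 with shLucif. CT26 libraries lacked most colon epithelial markers, with 1 of 12 at 1 FPKM or more under DMSO and Epcam at 0. The libraries labelled Hepa1-6 shLucif stand apart. Their 16 hepatocyte markers summed to 93.9 to 102.6 FPKM, against 745.6 to 796.5 in scramble and 659.2 to 683.2 in unmodified Hepa1-6 cells under DMSO, and their Soat1 level was 12.7 to 13.6 FPKM against 0.0977 to 0.182 in scramble. Some members share sequence with other genes, so reads could be split between them. Aars overlaps Exosc6 over 1326 identical bases, Phgdh has processed copies of which Gm7901 (98.7% identical) reached 113.4 FPKM, Psph overlaps Cct6a, and Slc7a11 shares 373 bases with tubulin genes such as Tuba1b.

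The comparison of the Soat1 hairpins with shLucif in CT26 asks which genes change when Soat1 is reduced. With sh3, members for serine synthesis and tRNA charging, the transporter genes Slc7a5 and Slc3a2 and the stress regulators Ddit3 and Ppp1r15a were lower. With sh1 and sh2 most of these genes were near the control or a little higher. Fgf21, Cth, Psat1, Atf5 and Ddit4 were lower and Chac1, Vldlr and Slc7a11 higher with each hairpin. Differences are given as log2 fold changes of FPKM + 1 and were called at a limma adjusted p (Benjamini-Hochberg over all genes tested) under 0.05.

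With sh3, 27 of the 32 members tested were called, 24 lower and 3 higher, where 52.5% of all genes were called, 21.6% lower and 30.9% higher. The median log2 fold change was -0.31 over the members and 0.04 over all genes. With sh1, 15 of 32 were called, 9 higher and 6 lower, where 37.8% of all genes were called, 19.1% higher and 18.7% lower. With sh2, 16 of 32 were called, 9 higher and 7 lower, where 38.9% of all genes were called, 18.9% higher and 20% lower. For the mean of the 3 hairpins the count was 19 of 32, 6 higher and 13 lower, where 43.1% of all genes were called, 23.4% higher and 19.8% lower. These comparisons share the same 3 shLucif libraries, so sh3 was also tested against the mean of sh1 and sh2, which leaves the control out. In that test 28 of 32 members were called, 26 lower and 2 higher with sh3, where 60.2% of all genes were called, 24.7% lower and 35.5% higher, and the median was -0.31 over the members and 0.06 over all genes. Of the calls over all genes, 58.8% were higher with sh3 against shLucif and 59.0% against sh1 and sh2, and these shares were 48.1% and 48.4% after a trend with transcript length was removed. Atf3 and Gdf15 did not reach 1 FPKM in 3 libraries and were not tested.

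Markers of several cell types, colon epithelium among them, moved with the hairpin comparisons. The 6 fibroblast markers summed to 161.9 to 169.4 FPKM with sh3, 99.87 to 104.5 with sh1 and 93.88 to 101.9 with sh2, against 110.6 to 112.5 with shLucif, with 3 of 6 at 1 FPKM or more in every group and Thy1 at 0. The 12 colon epithelial markers summed to 43.52 to 48.06 FPKM with sh3 against 24.7 to 25.02 with shLucif, with 3 and 2 of 12 at 1 FPKM or more and Lgr5 at 0. Their sums were 26.88 to 36.89 FPKM with sh1 (3 of 12 at 1 FPKM or more) and 24.91 to 29.42 with sh2 (2 of 12). The 16 hepatocyte markers summed to 8.917 to 9.324 FPKM with sh3, 8.03 to 9.044 with sh1 and 7.633 to 8.715 with sh2, against 5.774 to 6.987 with shLucif, with 1 of 16, Afp, at 1 FPKM or more in each group and Alb at 0. Leukocyte and endothelial markers did not reach 1 FPKM in any group. The part of these shifts in the members' values was not tested, and in bulk RNA fewer cells of a kind and less RNA per cell cannot be told apart.

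**Figure D1:**
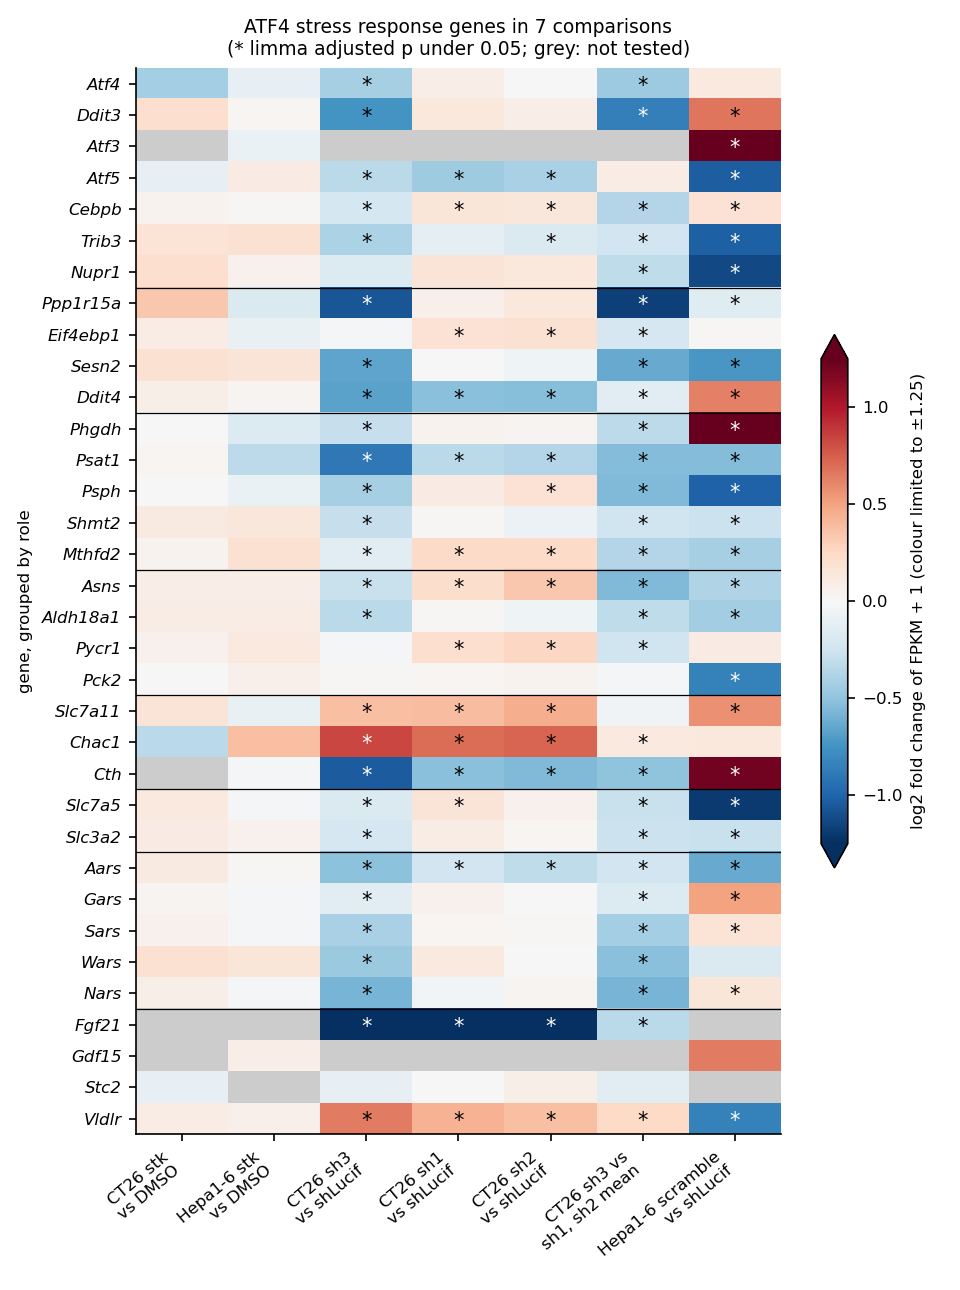
Log2 fold change of FPKM + 1 of each of the 34 members (rows, grouped by role) in 7 comparisons (columns), with blue for lower and red for higher. Asterisks mark a limma adjusted p under 0.05 and grey cells were not tested. The sh3 column holds 24 lower and 3 higher calls, and the stk columns hold 0 calls.

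Among the transcription factors and regulators, 5 of the 6 tested were lower with sh3 and none was higher. Of all genes, 21.6% were lower and 30.9% higher. Ddit3 (ENSMUSG00000025408, chr10:127290774-127296288), which encodes the stress factor CHOP, stood at 81.5, 93.6 and 99.98 FPKM with sh3, 170.4, 175 and 159 with sh1 and 162, 169.8 and 158 with sh2, against 151, 158 and 152 with shLucif. Every sh3 library was below every other CT26 hairpin library. The log2 fold change was -0.74 with sh3 (SE 0.0661, adjusted p = 4.68e-06), while with sh1 (0.13) and sh2 (0.09) it did not pass the test. Atf4 itself (ENSMUSG00000042406, chr15:80255184-80257541) stood at 244, 250.5 and 238 FPKM with sh3, 319, 319.8 and 405 with sh1 and 376, 303 and 304 with sh2, against 346, 289 and 351 with shLucif. Only sh3 kept all its libraries below shLucif, with a log2 fold change of -0.42 (SE 0.111, adjusted p = 0.00824), against 0.08 with sh1 and 0.00 with sh2, neither called. Set directly against the mean of sh1 and sh2, sh3 was lower for Ddit3 (log2 fold change -0.85, adjusted p = 3.36e-07) and for Atf4 (-0.46, adjusted p = 0.00167).

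Atf5, a bZIP factor that like ATF4 is controlled by upstream reading frames, stood at 156, 168 and 177 FPKM with sh3, 159, 153 and 151 with sh1 and 159, 157 and 161 with sh2, against 219, 199.5 and 213 with shLucif. It was lower with every hairpin, with log2 fold changes of -0.33 with sh3, -0.45 with sh1 and -0.40 with sh2 (adjusted p = 0.000155, 3.48e-05 and 7.43e-05 in that order), and the difference of sh3 from sh1 and sh2 did not pass the test (0.09, interval 0.00 to 0.18, adjusted p = 0.0787). Trib3, a pseudokinase that restrains ATF4 and AKT, stood at 96.96, 98.2 and 101 FPKM with sh3, 123, 124 and 112 with sh1 and 116, 118 and 110.0 with sh2, against 130.1, 129.6 and 131 with shLucif. It fell with sh3 (-0.39, adjusted p = 2.47e-05) and with sh2 (-0.18, adjusted p = 0.00694), and the value with sh1 was -0.12 (adjusted p = 0.0507). Cebpb, the C/EBP partner of ATF4, stood at 108, 111 and 122 FPKM with sh3, 148, 152 and 143 with sh1 and 145, 151 and 143 with sh2, against 129, 131 and 137 with shLucif. It was lower with sh3 (-0.22, adjusted p = 0.0027) and slightly higher with sh1 (0.16, adjusted p = 0.0245) and sh2 (0.14, adjusted p = 0.0349). The higher calls of Cebpb were lost when shLucif replicate 1 or 2 was left out, with sh1 also without its library 1 or 2 (adjusted p of 0.0565 to 0.086) and with sh2 also without its replicate 1 or 2 (0.0604 to 0.117). They were also lost with no filter on low values (0.056 with sh1 and 0.0773 with sh2), and the sh2 call after quantile normalization (0.109). Nupr1, a small stress-induced chromatin protein, had values of -0.17 with sh3, 0.17 with sh1 and 0.13 with sh2, none called (adjusted p = 0.147, 0.183 and 0.301 in that order), and sh3 was lower than sh1 and sh2 (-0.31, adjusted p = 0.00512). Atf3, another stress-induced bZIP factor, did not exceed 0.143 FPKM in any CT26 hairpin library.

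The brakes on translation and on the growth kinase mTORC1 were described next. Ppp1r15a (ENSMUSG00000040435, chr7:45522916-45526268), which encodes GADD34, the subunit that directs a phosphatase to eIF2 and so ends the response, stood at 95.4, 95.2 and 127 FPKM with sh3, 256, 230.3 and 209 with sh1 and 355, 204 and 199 with sh2, against 152, 277 and 258 with shLucif. The sh3 libraries were the lowest, and the control libraries differed among themselves, as did those of sh2. The log2 fold change was -1.07 with sh3 (SE 0.254, adjusted p = 0.00434), and the values of 0.06 with sh1 (interval -0.50 to 0.62) and 0.14 with sh2 (interval -0.42 to 0.70) did not pass. Sesn2, which encodes a leucine sensor that holds mTORC1 back, stood at 27.1, 27.5 and 26.6 FPKM with sh3, 43.2, 43.8 and 43.5 with sh1 and 41.5, 41.2 and 42.2 with sh2, against 44.6, 43.03 and 42.2 with shLucif. It fell with sh3 (-0.66, SE 0.0319, adjusted p = 7.86e-08), while the values with sh1 (0.01) and sh2 (-0.05) did not pass. Ddit4, which encodes the mTORC1 inhibitor REDD1, stood at 23.1, 20.2 and 21.4 FPKM with sh3, 25.1, 24.1 and 22.4 with sh1 and 23.8, 22.1 and 25.5 with sh2, against 35.3, 33.6 and 35.5 with shLucif. It was lower in every hairpin library than in every control library, with log2 fold changes of -0.67 with sh3, -0.53 with sh1 and -0.53 with sh2 (adjusted p = 7.69e-06, 8.3e-05 and 7.68e-05 in that order). Its difference between sh3 and the other hairpins (-0.14, adjusted p = 0.0473) was lost when any of 9 single libraries was left out, 3 of shLucif and 2 of each hairpin (adjusted p of 0.055 to 0.212), with no filter on low values (0.093) and when every library of the experiment entered 1 fit (0.0883). Eif4ebp1, which encodes a repressor of cap-dependent translation, stood at 213, 207 and 219 FPKM with sh3, 257, 249 and 231 with sh1 and 258, 242 and 239.8 with sh2, against 217, 215 and 216 with shLucif. It rose with sh1 (0.18, adjusted p = 0.00671) and sh2 (0.19, adjusted p = 0.0056) and the value with sh3 did not pass (-0.02, adjusted p = 0.728).

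**Figure D2:**
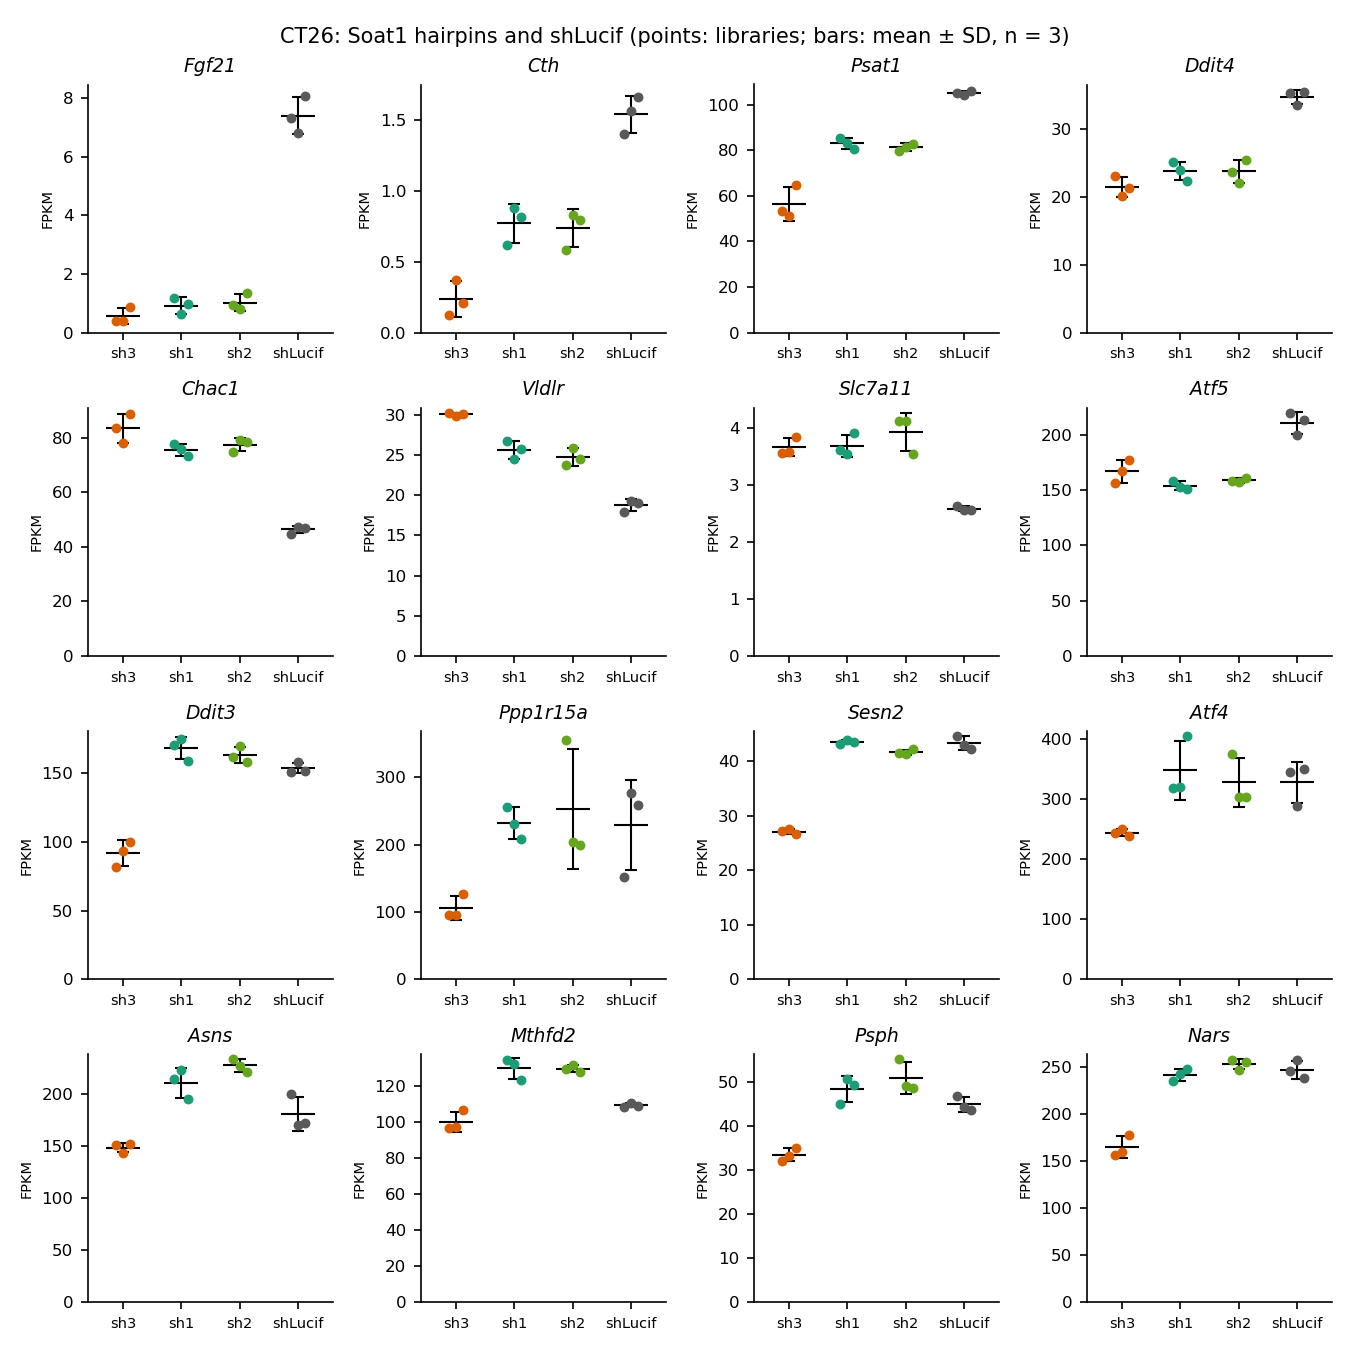
FPKM (vertical axes, from 0) of 16 members in CT26 with sh3, sh1, sh2 and shLucif, each point a library and each bar the mean ± SD (n = 3). Fgf21, Cth, Psat1, Atf5 and Ddit4 are lower and Chac1, Vldlr and Slc7a11 higher than shLucif with each hairpin. Every sh3 point lies below every other point for Ddit3, Ppp1r15a, Sesn2, Atf4, Asns, Mthfd2, Psph, Nars, Psat1 and Cth.

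All 5 enzymes of serine, glycine and one-carbon metabolism were lower with sh3, where 21.6% of all genes were lower. Psat1 (ENSMUSG00000024640, chr19:15904678-15947337), the aminotransferase of serine synthesis, stood at 53.3, 51.1 and 64.8 FPKM with sh3, 85.3, 82.99 and 80.7 with sh1 and 79.7, 81.4 and 82.98 with sh2, against 105, 104 and 106 with shLucif. The hairpin libraries did not overlap with the control, and those of sh3 lay below the other hairpins. Its log2 fold changes were -0.90 with sh3, -0.34 with sh1 and -0.37 with sh2 (SE with sh3 0.0697, adjusted p = 1.91e-06, 0.00287 and 0.00174 in that order), and sh3 was lower than sh1 and sh2 (-0.54, adjusted p = 1.56e-05). Psph, the phosphatase that releases serine, stood at 32.1, 33.3 and 34.97 FPKM with sh3, 45.02, 50.7 and 49.2 with sh1 and 55.1, 48.99 and 48.6 with sh2, against 46.8, 44.2 and 43.5 with shLucif. It fell with sh3 (-0.41, adjusted p = 0.000167), and its call with sh2 (0.18, adjusted p = 0.0378) was lost without shLucif replicate 2 or 3, sh2 replicate 1 or sh3 replicate 2 (adjusted p of 0.0506 to 0.139) and with a replicate block (adjusted p = 0.051), quantile normalization or no filter on low values (adjusted p of up to 0.0847). Cct6a, which overlaps Psph, averaged 201.9 ± 1.385 FPKM with sh3, 202.8 ± 9.27 with sh1 and 215.4 ± 5.49 with sh2, against 211 ± 1.08 with shLucif. Phgdh, the entry enzyme of the pathway, stood at 349, 365 and 372 FPKM with sh3, 458, 462 and 451 with sh1 and 466, 452 and 443 with sh2, against 464, 431 and 435 with shLucif. It was called lower with sh3 (-0.29, adjusted p = 6.8e-05) and not called with sh1 (0.04) or sh2 (0.03), and its copy Gm7901 stood at 86.9 ± 1.15 FPKM with sh3 against 106.1 ± 6.48 with shLucif. Shmt2, the mitochondrial enzyme that moves a carbon unit from serine to folate, fell with sh3 (-0.29, adjusted p = 6.03e-05), with means of 198 ± 4.56 FPKM with sh3 and 241 ± 3.40 with shLucif. Mthfd2, the mitochondrial folate dehydrogenase, stood at 96.7, 97.1 and 107 FPKM with sh3, 134, 132 and 123 with sh1 and 129, 132 and 128 with sh2, against 109, 111 and 109 with shLucif. It was higher with sh1 (0.24, adjusted p = 0.00128) and sh2 (0.24, adjusted p = 0.00136). The lower call with sh3 (-0.13, adjusted p = 0.0298) was lost without any 1 of the shLucif libraries or without sh3 replicate 1 or 2 (adjusted p of 0.0566 to 0.108), with no filter on low values (0.0585) and after quantile normalization (0.4). The difference of sh3 from sh1 and sh2 was -0.37 (adjusted p = 8.29e-06).

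Asns, the asparagine synthetase whose promoter site is listed above, stood at 151, 143 and 152 FPKM with sh3, 214, 223 and 195 with sh1 and 234, 227 and 221 with sh2, against 199.7, 170.3 and 172 with shLucif. The sh3 libraries were all below the others, and the sh2 libraries, which overlapped with those of sh1, were all above the control. Its log2 fold changes were -0.28 with sh3, 0.22 with sh1 and 0.33 with sh2 (adjusted p = 0.00389, 0.0191 and 0.00194 in that order), and the log2 fold change of sh3 against sh1 and sh2 was -0.55 (adjusted p = 7.09e-06). The sh1 call of Asns was lost without shLucif replicate 2 or 3 or sh1 library 1 or 2 (adjusted p of 0.0562 to 0.0753) and with no filter on low values (0.0541). Aldh18a1, which makes the precursor of proline, was lower with sh3 (-0.33, adjusted p = 0.00024), at 54.04 ± 3.40 FPKM against 68.3 ± 0.832 with shLucif. Pycr1, which completes proline synthesis, stood at 5.39, 6.41 and 5.68 FPKM with sh3, 6.96, 6.95 and 7.10 with sh1 and 7.61, 7.08 and 7.05 with sh2, against 5.79, 5.95 and 5.96 with shLucif, and it rose with sh1 (0.21, adjusted p = 0.0117) and sh2 (0.26, adjusted p = 0.00417). Pck2, the mitochondrial enzyme that makes phosphoenolpyruvate, was not called with any hairpin (0.02 with sh3, 0.03 with sh1 and 0.04 with sh2, adjusted p = 0.888, 0.818 and 0.707 in that order).

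The genes of cystine and glutathione handling moved in different directions. Chac1 (ENSMUSG00000027313, chr2:119351229-119354381), which encodes an enzyme that degrades glutathione, stood at 83.5, 78.1 and 88.7 FPKM with sh3, 77.6, 75.8 and 73.2 with sh1 and 74.6, 79.1 and 78.2 with sh2, against 44.7, 47.2 and 46.99 with shLucif. All hairpin libraries were above all control libraries. The log2 fold changes were 0.83 with sh3, 0.69 with sh1 and 0.73 with sh2 (SE with sh3 0.0480, adjusted p = 2.28e-07, 1.47e-06 and 9.33e-07 in that order). The small difference of sh3 from the other hairpins (0.12, adjusted p = 0.024) was lost without sh3 replicate 1 or 3 (adjusted p of 0.0658 to 0.129), with the length trend removed (0.111) and when every library of the experiment entered 1 fit (0.307). Slc7a11, the cystine importer, stood at 3.56, 3.58 and 3.84 FPKM with sh3, 3.60, 3.53 and 3.90 with sh1 and 4.12, 4.12 and 3.54 with sh2, against 2.63, 2.56 and 2.55 with shLucif, with log2 fold changes of 0.38 with sh3, 0.39 with sh1 and 0.46 with sh2 (adjusted p = 0.000311, 0.000498 and 0.000147 in that order). Cth, which makes cysteine by transsulfuration, stood at 0.123, 0.373 and 0.213 FPKM with sh3, 0.618, 0.881 and 0.817 with sh1 and 0.584, 0.833 and 0.799 with sh2, against 1.40, 1.56 and 1.66 with shLucif. It reached 1 FPKM only in the shLucif libraries, so it was tested because of the group in which it is high. Its log2 fold changes were -1.04 with sh3, -0.52 with sh1 and -0.55 with sh2 (adjusted p = 6.59e-06, 0.00156 and 0.00111 in that order).

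The neutral amino acid transporter is made of the light chain Slc7a5 and the heavy chain Slc3a2. Slc7a5 stood at 145, 155 and 155 FPKM with sh3, 189, 197 and 187 with sh1 and 171, 181 and 182 with sh2, against 169, 174 and 171 with shLucif. It was lower with sh3 (-0.18, adjusted p = 0.00266) and higher with sh1 (0.16, adjusted p = 0.008), and the sh1 call was lost after quantile normalization (adjusted p = 0.0815). Slc3a2 averaged 90.5 ± 0.338 FPKM with sh3, 112 ± 9.31 with sh1 and 107 ± 5.69 with sh2, against 105 ± 4.13 with shLucif. Its sh3 call (-0.21, adjusted p = 0.0117) was likewise lost after quantile normalization (adjusted p = 0.107).

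All 5 aminoacyl-tRNA synthetases, the enzymes that load amino acids onto tRNAs, were lower with sh3, where 21.6% of all genes were lower. Nars, for asparagine, stood at 156, 161 and 178 FPKM with sh3, 235, 243 and 248 with sh1 and 257, 248 and 256 with sh2, against 246, 258 and 239 with shLucif. Its sh3 libraries were clear of all others, with a log2 fold change of -0.58 (SE 0.0489, adjusted p = 3.12e-06), against -0.03 with sh1 and 0.03 with sh2, neither called. Wars, for tryptophan, stood at 48.7, 49.9 and 56.02 FPKM with sh3, 72.9, 81 and 79.1 with sh1 and 73.4, 69.3 and 71.03 with sh2, against 77.7, 70.9 and 65.6 with shLucif. Sars, for serine, stood at 128, 131 and 145 FPKM with sh3, 179.6, 182 and 184 with sh1 and 188, 173 and 179.6 with sh2, against 183, 176 and 176 with shLucif. Both fell with sh3 (Wars -0.46, adjusted p = 0.000204, and Sars -0.40, adjusted p = 3.22e-05). Gars, for glycine, fell with sh3 (-0.15, adjusted p = 0.00472). Aars, for alanine, was called lower with each hairpin (-0.52 with sh3, -0.24 with sh1 and -0.32 with sh2), at 73.9, 76.4 and 86.2 FPKM with sh3, 95.3, 97 and 94.8 with sh1 and 88.98, 89.3 and 93.1 with sh2, against 117, 113 and 109 with shLucif. Its overlapping neighbour Exosc6 was listed at 0.954, 0.666 and 2.01 FPKM with sh3, 28.4, 29.3 and 27.0 with sh1, 26.9, 29.3 and 26.5 with sh2, and 1.255, 25.8 and 29.0 with shLucif, so Aars is uncertain. Nars, Wars, Sars and Gars were each lower with sh3 than with sh1 and sh2 (log2 fold changes of -0.58, -0.52, -0.42 and -0.17, adjusted p = 5.79e-07, 1.92e-05, 4.85e-06 and 0.000517).

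Among secreted factors, Fgf21 (ENSMUSG00000030827, chr7:45613886-45615490), a hormone released by stressed liver and other tissues, had the largest change of any member with each hairpin. It stood at 0.407, 0.408 and 0.872 FPKM with sh3, 1.18, 0.620 and 0.962 with sh1 and 0.936, 0.803 and 1.34 with sh2, against 7.32, 6.81 and 8.07 with shLucif. Every control library was at least at 6.81 FPKM and no hairpin library exceeded 1.34. The log2 fold changes were -2.44 with sh3, -2.14 with sh1 and -2.06 with sh2 (SE with sh3 0.145, adjusted p = 2.89e-07, 1.29e-06 and 1.48e-06 in that order). Fgf21 reached 1 FPKM in the 3 shLucif libraries and in 1 library each of sh1 and sh2, so its test also rests on the group in which it is high. The difference of sh3 from the other hairpins (-0.34, adjusted p = 0.0358) was lost without sh1 library 1 or 3, sh2 replicate 3 or sh3 replicate 1 or 2 (adjusted p of 0.0602 to 0.143) and with no filter on low values (0.0922). Vldlr, a receptor for triglyceride-rich lipoproteins, stood at 30.2, 29.8 and 30.1 FPKM with sh3, 26.7, 24.4 and 25.7 with sh1 and 23.8, 25.9 and 24.5 with sh2, against 17.95, 19.3 and 19.05 with shLucif. All hairpin libraries were above the control, with log2 fold changes of 0.65 with sh3, 0.43 with sh1 and 0.38 with sh2 (adjusted p = 8.81e-07, 3.11e-05 and 7.56e-05 in that order), and sh3 was above sh1 and sh2 (0.25, adjusted p = 0.000239). Stc2, a stanniocalcin, was not called (-0.10 with sh3, 0.01 with sh1 and 0.07 with sh2, adjusted p = 0.309, 0.961 and 0.515 in that order). Gdf15, a stress hormone that acts on the hindbrain, was below the limit for testing, at 0.600, 0.443 and 0.687 FPKM with sh3, 0.311, 0.185 and 0.396 with sh1 and 0.397, 0.247 and 0.288 with sh2, against 0.744, 1.44 and 1.30 with shLucif.

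The promoter element and the hairpin responses were set side by side. With sh3, 4 of the 10 tested members that held the element were lower and 3 (Chac1, Slc7a11 and Vldlr) were higher. Of the 17 tested members with an entry and no match in the window, 16 were lower and 0 higher. Of all genes 21.6% were lower and 30.9% higher. The median log2 fold changes were -0.08 with the element and -0.39 without a match. With sh1, 5 of the 10 with the element were higher and 2 lower, and of the 17 without a match 2 were higher and 3 lower. Of all genes, 19.1% were higher and 18.7% lower with sh1. With sh2, 5 of the 10 with the element were higher and 2 lower, and of the 17 without a match 3 were higher and 4 lower. The shares of all genes with sh2 were 18.9% higher and 20% lower. Against sh1 and sh2, sh3 was lower for 6 and higher for 2 of the 10 with the element and lower for 15 and higher for 0 of the 17 without, where 24.7% of all genes were lower and 35.5% higher. No test was made of these splits.

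Other genes of the pathway in CT26 were counted over 92 listed genes, of which 82 were tested. With sh3, 19 were higher and 32 lower, where 30.9% of all genes were higher and 21.6% lower. With sh1, 28 were higher and 9 lower, where 19.1% of all genes were higher and 18.7% lower. With sh2, 25 were higher and 12 lower, where 18.9% of all genes were higher and 20% lower. Of 15 other cytosolic synthetases, 7 were lower and 2 higher with sh3. The counts were 1 lower and 6 higher with sh1, and 1 lower and 4 higher with sh2. The other lists were less one-sided or small with sh3. Of 8 other amino acid transporters tested, 2 were lower and 2 higher. Of 16 other amino acid and one-carbon enzymes, 5 were lower and 5 higher. For eIF2 kinases, subunits and partners the counts were 4 lower and 3 higher of 14. For endoplasmic reticulum stress genes they were 6 and 4 of 14. For other described ATF4 targets they were 5 and 2 of 12, and for other bZIP factors 3 and 1 of 4. Ero1l, an endoplasmic reticulum oxidase, was at 45.4 ± 3.76 FPKM with sh3 against 112 ± 7.75 with shLucif (-1.29, adjusted p = 6.2e-07). Ndrg1, a gene induced by hypoxia and stress, was at 36.6 ± 4.23 with sh3 and 88.2 ± 1.86 with shLucif (-1.25), and Got1, the cytosolic aspartate aminotransferase, at 58.5 ± 3.32 and 113 ± 11.4 in the same order (-0.93). With sh1, Herpud1, which takes part in degradation at the endoplasmic reticulum, fell (-0.78), and Hars, the histidine synthetase (0.78), and Eif2ak2, which encodes the eIF2 kinase PKR (0.67), rose. The values with sh2 were -0.82, 0.76 and 0.73 for Herpud1, Hars and Eif2ak2. Eif2ak2 averaged 11.3 ± 0.663 FPKM with sh3, 30.9 ± 1.51 with sh1 and 32.2 ± 2.86 with sh2, and the difference of sh3 from sh1 and sh2 was -1.40 (adjusted p = 6.39e-09). In that test Ndrg1 (-1.68) and Ero1l (-1.31) were also lower with sh3. For the mean of the hairpins, Hars was higher (0.50), and Cebpd, a C/EBP factor (-0.47), and Herpud1 (-0.46) were lower.

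The comparison of stk with DMSO asks which genes answer the compound. No member passed the limma test in CT26 (0 of 30 tested) or in Hepa1-6 (0 of 32), where 0.748% of all genes were called in CT26 (0.132% higher and 0.616% lower) and 1.53% in Hepa1-6 (0.683% higher and 0.849% lower). The median log2 fold change over the members was 0.08 in CT26 and 0.03 in Hepa1-6, against -0.01 and 0.00 over all genes. At an unadjusted p under 0.05 stood 6 of 30 members in CT26 and 9 of 32 in Hepa1-6, where 14.6% and 23.8% of all genes did. Not tested, for low values, were Atf3, Cth, Fgf21 and Gdf15 in CT26 and Fgf21 and Stc2 in Hepa1-6.

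In CT26, Atf4 stood at 192, 154 and 156 FPKM with stk and 213, 241 and 217 with DMSO. The stk libraries were all below the DMSO libraries, but the difference missed the threshold (-0.42, interval -0.64 to -0.20, adjusted p = 0.112). Chac1 stood at 20.8, 14.8 and 18.6 FPKM with stk and 21.3, 22.3 and 25.2 with DMSO (-0.33, interval -0.63 to -0.04, adjusted p = 0.292). Ppp1r15a stood at 24.4, 18.6 and 24.6 FPKM with stk and 12.7, 19.8 and 21.1 with DMSO, overlapping groups with an estimate of 0.34 (interval -0.14 to 0.81, adjusted p = 0.501). The estimates of Ddit3 (0.21, interval -0.08 to 0.50, adjusted p = 0.501), Nupr1 (0.21, interval -0.06 to 0.48, adjusted p = 0.462) and Sesn2 (0.19, interval -0.04 to 0.42, adjusted p = 0.435) did not pass. Single libraries move these estimates by over 1.5 times. Ppp1r15a was at 0.12 without DMSO replicate 1, Nupr1 at 0.098 without DMSO replicate 3 and Chac1 at -0.21 without stk replicate 2. Ddit3 was at 0.13 without stk replicate 1 and 0.35 without stk replicate 2, and Sesn2 at 0.122 and 0.305 without the same libraries. The lowest adjusted p was that of Atf4.

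In Hepa1-6, the lowest adjusted p belonged to Mthfd2, at 22.7, 22.3 and 22.4 FPKM with stk and 19.4, 20.3 and 19.2 with DMSO (0.19, interval 0.09 to 0.28, adjusted p = 0.0615). Every stk library was above every DMSO library. Chac1 stood at 3.29, 2.94 and 2.20 FPKM with stk and 1.84, 1.65 and 2.32 with DMSO (0.37, interval 0.05 to 0.69, adjusted p = 0.167). Psat1 stood at 50.9, 51.6 and 50.2 FPKM with stk and 50.3, 71.4 and 73.7 with DMSO (-0.33, adjusted p = 0.208). The DMSO library at 50.3 FPKM decides that value, since without it Psat1 was the only member called in Hepa1-6 and the only one whose response was called as different between the lines. Phgdh (-0.17, adjusted p = 0.128) and Ppp1r15a (-0.18, adjusted p = 0.0837) had lower estimates and Trib3 a higher one (0.19, adjusted p = 0.21, and 0.13 without stk replicate 1), none called.

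**Figure D3:**
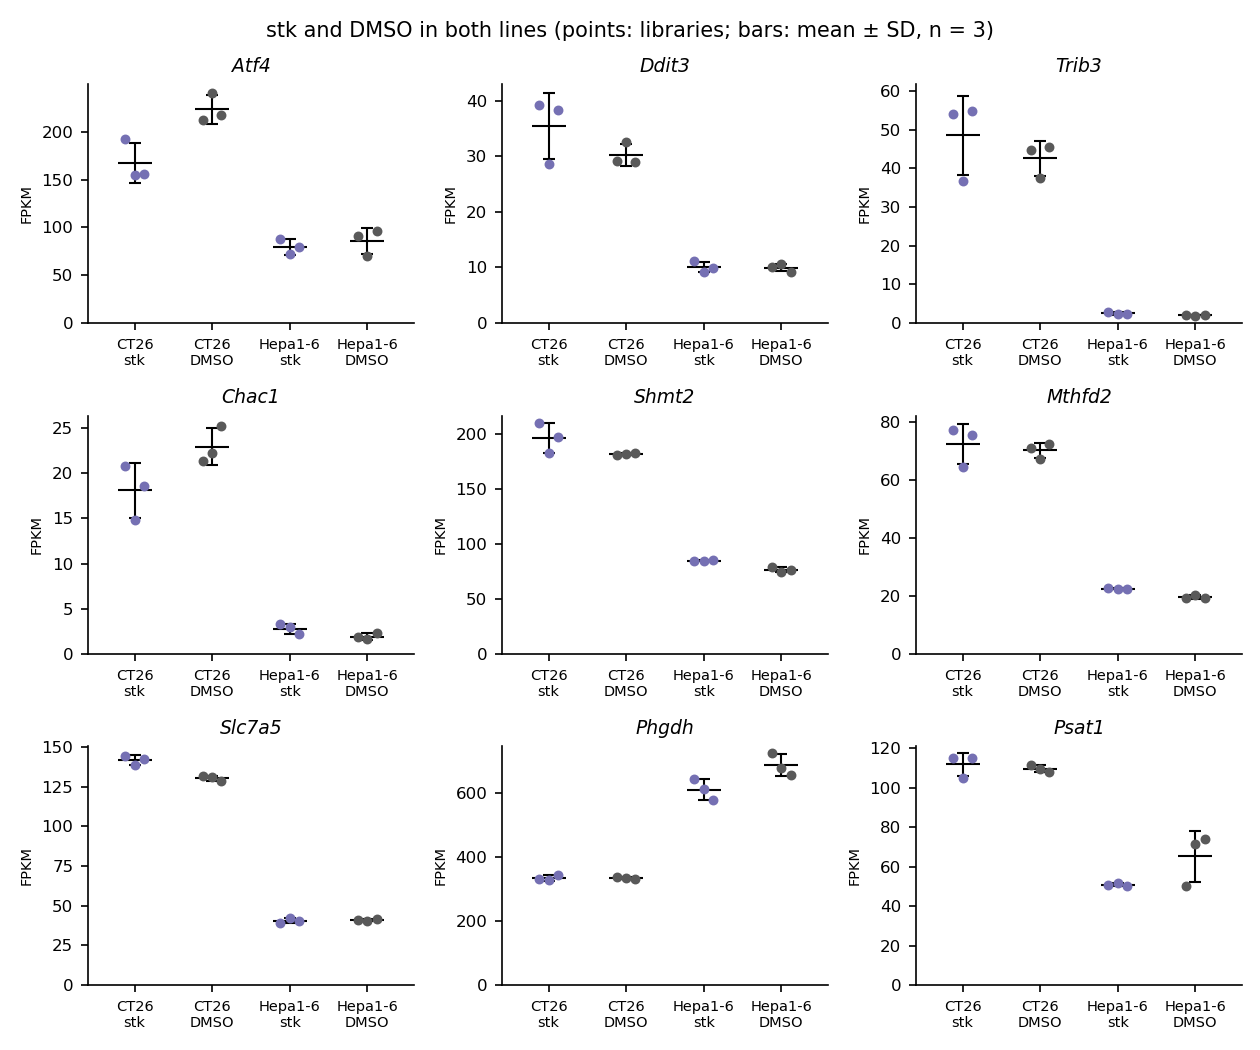
FPKM (vertical axes, from 0) of 9 members with stk and DMSO in CT26 and Hepa1-6, each point a library and each bar the mean ± SD (n = 3). The points of Atf4, Chac1 and Slc7a5 in CT26 and of Mthfd2, Shmt2, Trib3 and Phgdh in Hepa1-6 do not overlap between stk and DMSO. The share of all genes with such separation was not computed, so it is not read as a response to stk. In either line 0 members passed the test.

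No member's response to stk passed limma's test of the difference between the lines (0 of 33 tested, where 0.304% of all genes were called, 0.109% higher and 0.195% lower). At an unadjusted p under 0.05 stood 8 of 33 members and 13.9% of all genes. The largest estimates of CT26 minus Hepa1-6 were those of Chac1 (-0.71, interval -1.14 to -0.27, adjusted p = 0.167) and Ppp1r15a (0.52, interval 0.02 to 1.01, adjusted p = 0.347). Without CT26 DMSO replicate 1 that of Ppp1r15a was 0.30, and without Hepa1-6 DMSO replicate 2 that of Atf4 was -0.18. For Psat1 (0.36), Atf4 (-0.32), Slc7a11 (0.26) and Atf5 (-0.20) the adjusted p-values were 0.355, 0.454, 0.338 and 0.181. Of the 92 other pathway genes, 1 of 81 tested was called in CT26 and 1 of 83 in Hepa1-6. Of all genes, 0.748% were called in CT26 and 1.53% in Hepa1-6, so 1 call in each list is near that share. The genes called were Glul, glutamine synthetase, at 28.3 ± 1.16 FPKM with stk and 22.4 ± 0.850 with DMSO in CT26 (0.32, adjusted p = 0.0448), and Jdp2, a bZIP repressor, at 7.65 ± 0.670 and 5.38 ± 0.349 in Hepa1-6 (0.44, adjusted p = 0.0481).

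Under DMSO, the levels of the members were set side by side between CT26 and Hepa1-6. CT26 had more of the transcripts for stress regulators, serine and proline synthesis, transport and tRNA charging, and Hepa1-6 had more Atf3, Gdf15, Cth, Slc7a11, Phgdh and Ddit4. Of 33 members tested, 32 were called, 26 higher and 6 lower in CT26, where 76.8% of all genes were called, 38.5% higher and 38.4% lower. The median log2 fold change was 1.13 over the members and -0.01 over all genes. The lines differ in tissue of origin and in most of their genes, so what sets these levels cannot be told apart here.

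On the log2 scale of FPKM + 1, which understates ratios to a level near 0 such as those of Gdf15, Atf3 and Cth in CT26, the largest difference was that of Trib3, at 44.7, 37.5 and 45.6 FPKM in CT26 and 2.07, 1.93 and 2.10 in Hepa1-6 (3.84, SE 0.139, adjusted p = 4.06e-10). Nupr1 stood at 20.1, 21.9 and 16.4 FPKM in CT26 and 0.848, 1.85 and 1.42 in Hepa1-6 (3.12). Atf5 stood at 138, 135 and 147 FPKM in CT26 and 24.4, 25.6 and 24.5 in Hepa1-6 (2.45). For each of these regulators the lines did not overlap. Ddit3 stood at 29.2, 32.6 and 28.9 FPKM in CT26 and 10.1, 10.6 and 9.23 in Hepa1-6 (1.51, adjusted p = 2.12e-07). Atf4 stood at 213, 241 and 217 FPKM in CT26 and 91.5, 70.4 and 96.2 in Hepa1-6 (1.38, SE 0.124, adjusted p = 1.27e-06). Atf3 ran the other way, at 0, 0 and 0.0219 FPKM in CT26 and 9.09, 7.11 and 8.22 in Hepa1-6, as did the hormone gene Gdf15, at 0, 0 and 0.0255 FPKM in CT26 and 13.3, 13.3 and 12.4 in Hepa1-6. Both passed the limit for testing through Hepa1-6 alone.

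Among the enzymes and carriers, Chac1 stood at 21.3, 22.3 and 25.2 FPKM in CT26 and 1.84, 1.65 and 2.32 in Hepa1-6 (3.03, adjusted p = 3.38e-09). Psph stood at 28.1, 26.2 and 27.8 FPKM in CT26 and 6.63, 6.11 and 5.78 in Hepa1-6 (1.99). Mthfd2 stood at 71.1, 67.2 and 72.2 FPKM in CT26 and 19.4, 20.3 and 19.2 in Hepa1-6 (1.79). The serine pathway was split between the lines, since Psph, its last enzyme, was higher in CT26 and Phgdh, its first, was lower. Phgdh averaged 335 ± 3.83 FPKM in CT26 and 688 ± 35.1 in Hepa1-6 (-1.03, adjusted p = 1.54e-09). Its copies ran the other way, with Gm7901 at 78.2 ± 2.09 FPKM in CT26 and 53.5 ± 3.07 in Hepa1-6. Gm9347 was at 21.6 ± 0.67 and 4.18 ± 0.106 in the same order. How reads were split between Phgdh and these copies was not tested. Cct6a, which overlaps Psph, was at 242 ± 2.26 FPKM in CT26 and 182 ± 7.62 in Hepa1-6. The split of reads between Psph and Cct6a was not tested either. Pck2 stood at 17.7, 16.5 and 17.8 FPKM in CT26 and 3.84, 4.36 and 3.73 in Hepa1-6 (1.88). Slc7a5 stood at 132, 131 and 128 FPKM in CT26 and 41.01, 40.4 and 41.9 in Hepa1-6 (1.64). Vldlr stood at 14.2, 15.2 and 13.8 FPKM in CT26 and 1.27, 1.40 and 1.56 in Hepa1-6 (2.68). For Pck2, Slc7a5 and Vldlr every CT26 library was above every Hepa1-6 library. All 5 synthetases were higher in CT26, with log2 fold changes from 0.38 (Gars) to 1.25 (Aars). The size of the Aars difference is uncertain. Its overlapping neighbour Exosc6 was listed at 1.04, 29.8 and 0.914 FPKM in CT26 and 37.5, 0.604 and 37.6 in Hepa1-6. Also higher, with log2 fold changes where no FPKM is given, were Psat1 (0.76), Asns (1.25), Shmt2 (1.24), Sesn2 (1.13), Cebpb (0.44), Eif4ebp1 (134 ± 3.61 FPKM in CT26 and 66.6 ± 1.31 in Hepa1-6), Aldh18a1 (1.31), Pycr1 (0.79) and Slc3a2 (0.64), and lower were Slc7a11 (-0.70) and Ddit4 (-0.41). Cth stood at 0.148, 0 and 0 FPKM in CT26 and 2.89, 2.14 and 2.61 in Hepa1-6 (-1.75) and was tested through Hepa1-6 alone. Stc2 stood at 2.17, 2.31 and 2.10 FPKM in CT26 and was listed at 0 in all 3 Hepa1-6 libraries, so its higher call came through CT26 alone, and Fgf21 was listed at 0 in every Hepa1-6 library of both tables. Only Ppp1r15a was tested and not called (0.36, adjusted p = 0.0597), its libraries overlapping at 12.7, 19.8 and 21.1 FPKM in CT26 and 13.7, 13.3 and 13.4 in Hepa1-6. Without CT26 DMSO replicate 1 it was called as well (0.57, adjusted p = 0.000504). Of the 92 other pathway genes, 44 were higher and 24 lower of 85 tested, where 38.5% of all genes were higher and 38.4% lower. Bcat1, the cytosolic branched-chain aminotransferase, stood at 17.03 ± 0.326 FPKM in CT26 and did not exceed 0.011 in Hepa1-6. The folate enzyme Aldh1l2 was at 16.9 ± 0.183 in CT26 and 0.744 ± 0.105 in Hepa1-6 (3.36), and Cebpa, a C/EBP factor of liver, at 0.120 ± 0.0215 and 8.17 ± 0.701 in the same order (-3.03). Under DMSO, Bcat1 and Aldh1l2 reached 1 FPKM only in CT26 and Cebpa only in Hepa1-6. Each of these calls thus rests on the line in which the gene is high.

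**Figure D4:**
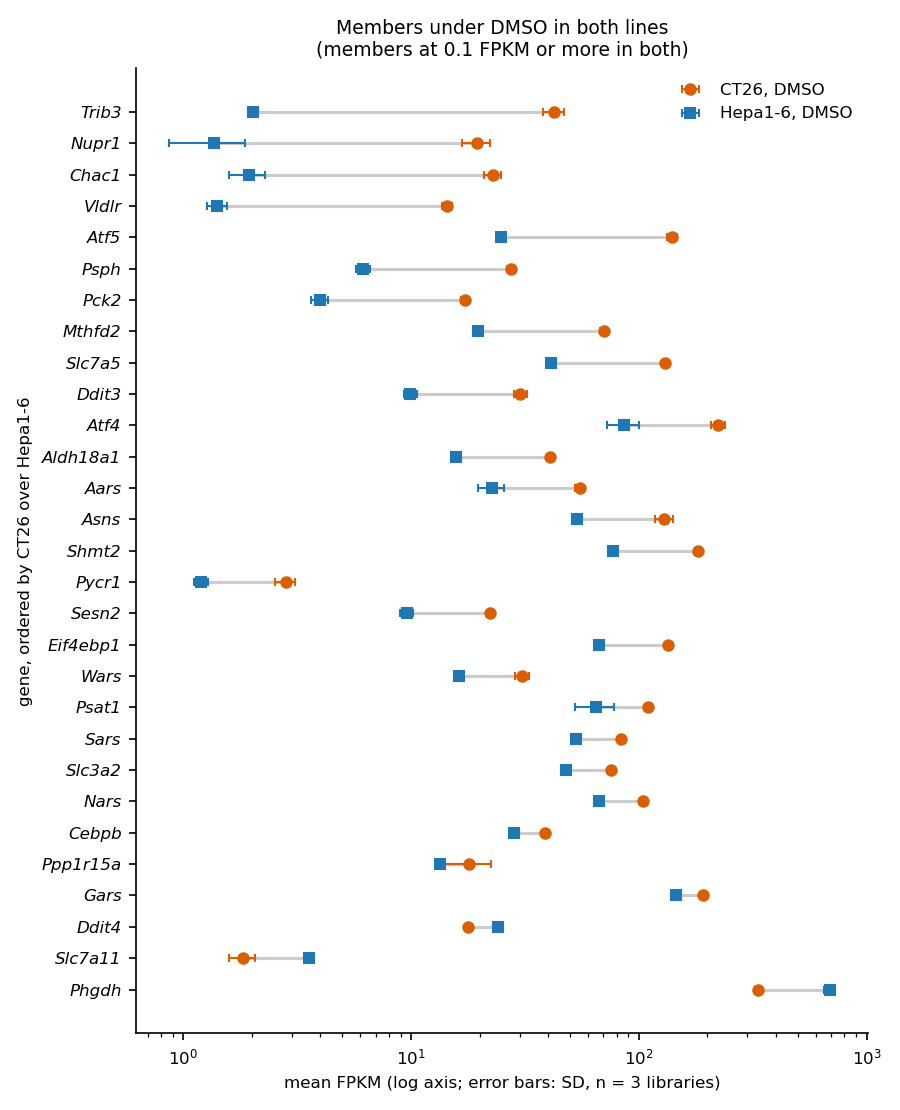
Mean FPKM (horizontal log axis) under DMSO of the members at 0.1 FPKM or more in both lines, ordered by the ratio of CT26 (circles) to Hepa1-6 (squares), with SD bars over 3 libraries. Of the members plotted Trib3 has the highest ratio of CT26 to Hepa1-6, and Ddit4, Slc7a11 and Phgdh lie to the right in Hepa1-6.

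The scramble and shLucif libraries of Hepa1-6 both carry control hairpins by their labels. Of 32 members tested, 26 were called, 10 higher and 16 lower with scramble, where 68.2% of all genes were called, 31.4% higher and 36.8% lower. The hepatocyte markers moved with this comparison: 9 of 16 reached 1 FPKM in scramble and 5 of 16 in the libraries labelled shLucif, with Alb at 143, 123 and 139.8 FPKM in scramble and 1.78, 1.36 and 1.33 in shLucif, and Krt18 at 1219, 1176 and 1174 in scramble and 163, 171 and 166 in shLucif. The 6 fibroblast markers summed to 247.4 to 266.5 FPKM in scramble and 43.16 to 49.42 in shLucif. The hairpin and these differences cannot be told apart. Whether these libraries are labelled correctly was not tested, so the values describe them only as labelled.

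Atf3 stood at 8.69, 11.5 and 11.9 FPKM in the scramble libraries and 1.89, 2.66 and 2.44 in those labelled shLucif (1.81, SE 0.135, adjusted p = 2.75e-05). Cth stood at 4.36, 3.80 and 4.39 FPKM in the scramble libraries and 1.21, 1.48 and 1.06 in those labelled shLucif (1.21). Phgdh stood at 974, 904 and 942 FPKM in the scramble libraries and 377, 403 and 409 in those labelled shLucif (1.25, adjusted p = 1.05e-06). All of these were higher in scramble. Ddit3 stood at 18.8, 19.05 and 19.4 FPKM in the scramble libraries and 11.2, 11.9 and 11.8 in those labelled shLucif (0.67). Ddit4 stood at 41.2, 45.8 and 46.2 FPKM in the scramble libraries and 28.8, 25.03 and 31.4 in those labelled shLucif (0.63). Slc7a11 stood at 8.55, 8.46 and 8.75 FPKM in the scramble libraries and 5.10, 5.66 and 5.56 in those labelled shLucif (0.58). Smaller differences in the same direction were those of Gars (0.50), Cebpb (0.18), Sars (0.18) and Nars (0.15). The call of Nars was lost without scramble replicate 1 or 2 (adjusted p of 0.0508 to 0.052). Slc7a5 stood at 30.5, 30.8 and 31.7 FPKM in the scramble libraries and 68.3, 74.8 and 74.1 in those labelled shLucif (-1.20, adjusted p = 9.33e-07). Nupr1 stood at 4.30, 2.997 and 4.40 FPKM in the scramble libraries and 9.52, 9.45 and 9.95 in those labelled shLucif (-1.13). Trib3 stood at 5.20, 5.38 and 5.77 FPKM in the scramble libraries and 11.1, 12.1 and 13.1 in those labelled shLucif (-1.02). The transporter chain and both regulators were thus lower in scramble. Atf5 was at 23.8, 25.2 and 23.5 FPKM in the scramble libraries and 51.4, 49.9 and 49.7 in those labelled shLucif (-1.03). Psph was at 7.63, 7.42 and 7.49 FPKM in the scramble libraries and 14.98, 16.5 and 17.2 in those labelled shLucif (-1.01). Pck2 was at 3.62, 3.71 and 3.41 FPKM in the scramble libraries and 6.54, 7.14 and 8.03 in those labelled shLucif (-0.84). Each of these groups was clear of the other. Cct6a, which overlaps Psph, averaged 169 ± 6.80 FPKM in the scramble libraries and 235 ± 11.9 in those labelled shLucif. How reads were split between Psph and Cct6a was not tested. Vldlr was at 2.45, 3.02 and 2.68 FPKM in the scramble libraries and 5.59, 5.27 and 6.11 in those labelled shLucif (-0.84). Sesn2 was at 8.66, 8.49 and 9.40 FPKM in the scramble libraries and 14.7, 15.2 and 16.1 in those labelled shLucif (-0.73). Aars was at 20.98, 20.5 and 21.5 FPKM in the scramble libraries and 34.1, 29.6 and 35.5 in those labelled shLucif (-0.63) and is uncertain, since Exosc6 was listed at 0.0203, 44.6 and 3.54 FPKM in the libraries labelled shLucif. Lower in scramble too were Psat1 (-0.54), Aldh18a1 (-0.44), Mthfd2 (-0.42), Asns (-0.38), Slc3a2 (-0.28), Shmt2 (-0.27) and Ppp1r15a (-0.15, lost with an adjusted p of 0.554 when all libraries of the table were fitted together).

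**Figure D5:**
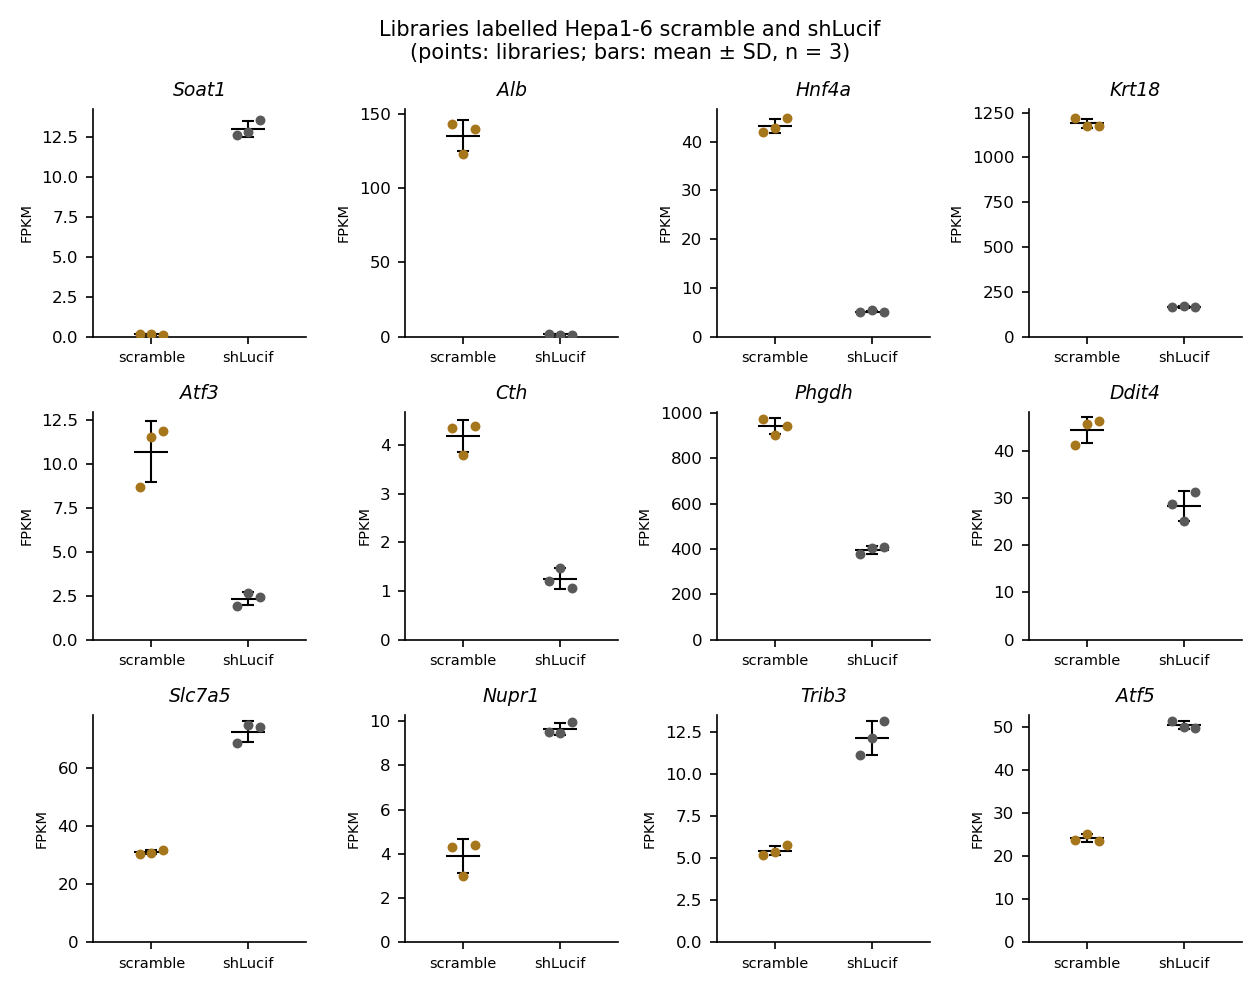
FPKM (vertical axes, from 0) of Soat1, the liver and epithelial genes Alb, Hnf4a and Krt18 and 8 members in the libraries labelled Hepa1-6 scramble and shLucif, each point a library and each bar the mean ± SD (n = 3). Soat1 is near 0 in scramble, and Alb, Hnf4a and Krt18 are low in the libraries labelled shLucif.

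Members not called in this comparison were Gdf15 (0.65, interval -0.17 to 1.47, adjusted p = 0.135), Wars (-0.18, interval -0.72 to 0.35, adjusted p = 0.491), Chac1 (0.13, adjusted p = 0.502), Atf4 (0.12, adjusted p = 0.232), Pycr1 (0.10, adjusted p = 0.253) and Eif4ebp1 (0.02, adjusted p = 0.733). Without the shLucif replicate 3 library the estimate of Gdf15 was 0.34. Wars stood at 18.7, 18.9 and 19.04 FPKM in the scramble libraries and 17.6, 32.5 and 17.4 in those labelled shLucif, and the library at 32.5 FPKM decides its direction, since without it the value was 0.10. Of the 92 other pathway genes, 24 were higher and 42 lower of 85 tested, and of 14 endoplasmic reticulum chaperone and stress genes 2 were higher and 11 lower, where 31.4% of all genes were higher and 36.8% lower. Bcat1 was at 0.0188 ± 0.0152 FPKM in scramble and 8.63 ± 0.109 in the libraries labelled shLucif (-3.24), and it was tested through the latter alone. Cebpa was at 12.9 ± 0.312 in scramble and 2.80 ± 0.317 in shLucif (1.87), and Ndrg1 at 24.3 ± 4.75 in scramble and 7.81 ± 1.17 in shLucif (1.51).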

How the data were processed

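The authors deposited FPKM, per the file headers and the labels, in 2 tables of 55335 genes. Which tool, annotation and filters made these FPKM is not given in the sources used here. Per the labels' protocols, total RNA was extracted with TRIzol, a SMARTer kit was used for certain samples, Skewer trimmed the reads and sequencing was paired-end on an Illumina HiSeq. GRCm38, HISAT2, STAR, DESeq2 and edgeR are named, with no role, per the submitters' processing notes. Each table's column names, which match the labels, decided its experiment, since the tables' own names are exchanged. Of 45 labelled samples, 30 had a matching column (12 drug, 18 knockdown). Each line has 6 samples labelled stk and 3 stk columns. A further 21 columns matched no label and were not used. The sh1 columns show their group but not which sample, so they carry no replicate number. The Soat1 hairpins of Hepa1-6 were not analysed here.

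FPKM are not counts, so limma 3.58.1 (R 4.3.3) with a mean-variance trend was run on log2(FPKM + 1) of genes at 1 FPKM or more in at least 3 libraries of the fit, which understates the change of low genes. Each line and experiment had its own fit, and the CT26 hairpins shared 1. The stk difference and the DMSO levels came from 1 fit of all drug libraries. Tests were two-sided, p-values were adjusted over all genes tested by Benjamini-Hochberg and called under 0.05, and intervals are 95% intervals of the log2 fold change. The step was tested on simulated data. Same-numbered libraries deviated together with correlations of -0.0497 to 0.105. These weak correlations do not settle whether the numbers pair the samples. The main fits used no replicate block, and a block was run as an alternative. Near copies were aligned with BLAST 2.17.0 (at least 95% identity over 200 bases). Promoters are from RefSeq, GRCm38.p6. The gene coordinates are those of the annotation of GRCm38.

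The members and all lists were chosen with earlier results of these data known. All 34 members are named. For each comparison, up to 15 called members with the largest change have each library's value given, up to 6 that did not pass have their estimate, and of the 92 other pathway genes the 3 called with the largest change are named. Alternatives were a pseudocount of 0.1, no filter, a minimum of 5 FPKM, quantile normalization, all libraries of a table in 1 fit, a replicate block, removal of a length trend and leaving out each library.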

Additional observations from a re-analysis of the deposited data

How the results depend on the processing

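No member was called for stk except under some alternatives: 1 in CT26 after quantile normalization (Slc7a5), and in Hepa1-6 1 each with a minimum of 5 FPKM (Mthfd2), after quantile normalization (Shmt2), with all libraries in 1 fit (Phgdh) and without DMSO replicate 1 (Psat1), which also gave 1 in the difference between the lines. Leaving out 1 library gave 0 members for stk in CT26, 0 to 1 in Hepa1-6 and 0 to 1 for the difference, 32 to 33 for the lines under DMSO, 25 to 27 for sh3, 12 to 16 for sh1, 13 to 16 for sh2, 13 to 19 for the mean of the hairpins, 26 to 28 for sh3 against sh1 and sh2, and 25 to 27 for scramble. Of 163 called values of named genes, 145 kept their call in every alternative run, 18 lost it in at least 1 and 0 reversed. The values that changed sign had not passed the test. Given with the opposite end of their range when a library was left out, these were Ppp1r15a with sh2 (-0.134 without shLucif replicate 1 and -0.135 without sh2 replicate 1, up to 0.297), Slc7a5 with sh2 (-0.019 after quantile normalization), Eif4ebp1 with sh3 (0.003 after quantile normalization and 0.002 without sh3 replicate 2, down to -0.04), Pycr1 with sh3 (0.028 without sh3 replicate 1, down to -0.079), Pck2 with sh3 (-0.051 with the length trend removed, -0.003 and -0.009 without sh3 replicate 1 and 3, up to 0.06), and Pck2 for sh3 against sh1 and sh2 (0.013, 0.025 and 0.023 without sh1 library 1, sh2 replicate 2 and sh3 replicate 2, down to -0.055). In scramble they were Wars (0.102 without shLucif replicate 2, down to -0.33), Chac1 (-0.029, up to 0.26) and Eif4ebp1 (-0.014, up to 0.045), the last 2 without shLucif replicate 1. The cause was not tested.

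Over all genes, stk in CT26 called 85 genes, and 14 without a filter, 133 with a minimum of 5 FPKM, 204 in 1 fit and 2 to 92 with a library left out. In Hepa1-6 it called 175, and 4, 473, 928 and 8 to 59 under the same settings and 91 with the length trend removed. The difference called 39, and 7 to 28 with a library left out. Of the CT26 calls 17.6% were higher, and 28.6% without a filter, 30.2% after quantile normalization and 44.4% with the length trend removed. With a replicate block, stk called 4 genes in CT26 (2 of them higher), 4 in Hepa1-6 (1 of them higher, against 44.6% of the 175) and 11 for the difference. The block left 0 members for stk, 15 for sh2, 27 for sh3, 27 for scramble and 32 for the lines under DMSO. No sh1 comparison could be blocked, because its columns carry no number. Read totals are unknown, which limits what can be said of genes near 0.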

Other observations

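The controls of the 2 experiments were set side by side as values, without a test, since they stand in separate tables and the cells, the labelled batch date and the collection time differ. In CT26, 31 of 32 members (96.9%) were higher in all 3 shLucif libraries than in all 3 DMSO libraries, as were 33.3% of all genes. Of these members, Cth and Fgf21 reached 1 FPKM with shLucif and not with DMSO. Their count as higher thus rests on the group in which they are high. The median ratio of shLucif to DMSO was 1.657 over the members and 0.989 over all genes. Ppp1r15a averaged 229 ± 67.4 FPKM with shLucif and 17.9 ± 4.53 with DMSO, and Ddit3 153.8 ± 3.87 with shLucif and 30.2 ± 2.02 with DMSO (SD, n = 3). In Hepa1-6, 21 of 32 members (65.6%) were higher in all scramble libraries than in all DMSO libraries, as were 25% of all genes, with a median ratio of 1.174 over the members. What sets these controls apart cannot be told apart.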
